A study of Mus musculus with 7 samples.

Results

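The MAP kinase feedback genes studied here are 10 rows of a table of 24552 gene symbols: the dual-specificity phosphatase genes Dusp1, Dusp4, Dusp5, Dusp6, Dusp10 and Dusp16, the Sprouty genes Spry1, Spry2 and Spry4, and Spred1. They were chosen by name with their counts in the PBS and DT columns of this table already known, so the difference between the groups is given for them as a description. The libraries are 3′-end RNA sequencing libraries of EpCAM+ cholangiocytes, which line the bile ducts, from livers of mice of the Foxp3GFPDTR genotype, in which Foxp3-expressing regulatory T cells carry green fluorescent protein and the diphtheria toxin receptor. Every mouse, controls included, was fed for 10 days on a DDC diet, which damages the bile ducts. The PBS group (4 libraries) was injected intraperitoneally with saline every 48 h, and the DT group (3 libraries) with diphtheria toxin at 1 µg/kg on the same schedule. The labels give no age or sex and do not say whether the libraries are separate animals, so that p-values reflect only the spread among libraries, part of which may be technical.

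Growth factor receptors signal through Ras and the kinases Raf, MEK and ERK, and stress signals run through the related kinases JNK and p38. Active MAP kinases turn on genes whose products switch the pathway off again. The DUSP proteins of this set are MAP kinase phosphatases, which remove phosphates from the threonine and tyrosine that activate a MAP kinase. Sprouty and SPRED proteins act further up, between the receptor, Ras and Raf. The transcripts of many of these genes are short-lived, and Dusp1 in particular is an immediate early gene that also rises when tissue is taken apart into single cells.

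The promoters of the 2 members with the most reads, Dusp1 and Dusp6, are shown because Dusp1 was lower in each DT library than in any PBS library and Dusp6 was not, and the stretch before Dusp5 because it holds another kind of early response motif. All are RefSeq sequences of build GRCm38.p6, printed in the direction of transcription and ending at the last base before the annotated start. Capitals mark TGACGTCA, the cyclic AMP response element, in Dusp1, and the CArG box, which binds serum response factor, in Dusp5. The Dusp6 stretch holds neither and has no capitals.
Dusp1 (chr17:26508473-26508722, minus strand): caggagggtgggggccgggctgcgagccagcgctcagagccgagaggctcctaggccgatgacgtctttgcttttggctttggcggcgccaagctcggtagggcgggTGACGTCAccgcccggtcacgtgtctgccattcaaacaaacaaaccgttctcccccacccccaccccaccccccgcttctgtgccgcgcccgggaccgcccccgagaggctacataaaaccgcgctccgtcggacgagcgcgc
Dusp6 (chr10:99262981-99263230, plus strand): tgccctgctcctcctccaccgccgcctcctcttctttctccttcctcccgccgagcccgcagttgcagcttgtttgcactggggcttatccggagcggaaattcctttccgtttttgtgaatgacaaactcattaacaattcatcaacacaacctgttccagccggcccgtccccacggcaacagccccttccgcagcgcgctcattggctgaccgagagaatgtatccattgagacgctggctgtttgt
Dusp5 (chr19:53529045-53529144, plus strand): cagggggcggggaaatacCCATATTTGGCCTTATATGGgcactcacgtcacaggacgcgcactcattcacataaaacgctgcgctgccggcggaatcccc

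The RefSeq table held promoters for 8 of the 10 members, and both strands of the 250 bases before the start were searched. TGACGTCA was found in 1 of the 8, Dusp1, at 143 to 136 bases before the start, between GC boxes (GGGCGG) at 150 to 145 and, on the other strand, at 135 to 130. It was present in 1.55% of the 32851 promoters of the table. The CArG box was found in 1 of the 8, Dusp5, where a pair lay side by side at 82 to 73 and 72 to 63 bases before the start, and in 1.47% of all promoters. GGGCGG was found in 6 of the 8 and in 32.7% of all promoters. The AP-1 motif TGANTCA and the ETS motif CCGGAA were in 0 of the 8, against 6.75% and 12.0% of all promoters. No match overlapped a match of another motif, and a match is a stretch of letters, not a measured binding site.

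Total counts ran from 4805018 to 6285624 per library, and counts above 0 were found for 5419 (DT 1) to 8361 (PBS 4) genes. Many values were 0: a library had no reads for 25.6% of genes that averaged 200 to 500 counts in the rest of its group, and for 1.17% of those at 1000 to 2000 counts. The sorted population held its markers, since 10 of 12 cholangiocyte markers had counts in every library and Epcam, the sorting marker, lay between 646 and 1025 CPM (counts scaled to TMM-adjusted library size). The Foxp3 row had 0 counts in all 7 libraries, so the removal of regulatory T cells cannot be checked here. Summed hepatocyte markers (10 of 13 with counts, Cyp3a11, Cps1 and Tat at 0) were 2249 to 3651 CPM in PBS and 3810 to 4987 CPM in DT, and Alb, the albumin gene, 684 to 1248 and 1351 to 2016 CPM. Macrophage and monocyte markers (11 of 12 with counts, Adgre1 at 0) were 858 to 2024 CPM in PBS and 1463 to 1805 CPM in DT, and PBS 4 stood apart in the macrophage gene Lyz2, with 294 CPM against 0 to 1.55 CPM in PBS 1 to 3. Neutrophil markers (4 of 5 with counts) summed to 377 CPM in PBS 4, 0 in PBS 1 to 3 and 35.9 to 185 CPM in DT, and T and NK cell markers to at most 0.202 CPM. Reads of Y-linked genes were present in PBS 1 (2048 counts) and in DT 1 to 3 (1681, 1045 and 880 counts) and absent from PBS 2 to 4. The Y chromosome is carried by males, so sex, which the labels do not give, goes largely with treatment here. Outside PBS 1 the 2 cannot be told apart in any difference between the groups, that of Dusp1 included. In bulk libraries, fewer cells of a type and less RNA per cell cannot be told apart.

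Dusp1 was by far the most abundant member and Dusp6 the next, in 7 of 7 libraries. In PBS the mean levels descended from Dusp1 at 2335 ± 248 CPM (SD, n = 4) through Dusp6 at 446 ± 81.7, Dusp16 at 223 ± 120, Spry2 at 192 ± 84.6, Dusp10 at 127 ± 90.9 and Spred1 at 64.4 ± 41.0 CPM. Below them came Spry1 at 27.2 ± 23.7, Dusp4 at 15.4 ± 30.8, Spry4 at 13.5 ± 18.9 and Dusp5 at 1.06 ± 2.12 CPM. Levels are compared between genes without division by length, because 3′-end libraries give about 1 fragment site per transcript. Only Dusp1 was separated from its neighbour in this order, its lowest PBS library (2138 CPM) lying above the highest of Dusp6 (560.5 CPM), while every other neighbouring pair overlapped in range. Dusp1 ranked 22nd of all genes by mean PBS level. In DT the first 6 places were held in the same order, with means of 1127 ± 339 CPM for Dusp1, 442 ± 92.2 for Dusp6, 291 ± 138 for Dusp16, 143 ± 56.6 for Spry2, 139 ± 94.9 for Dusp10 and 30.2 ± 52.3 for Spred1 (SD, n = 3), and again only Dusp1 was separated from the next gene.

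**Figure D1:**
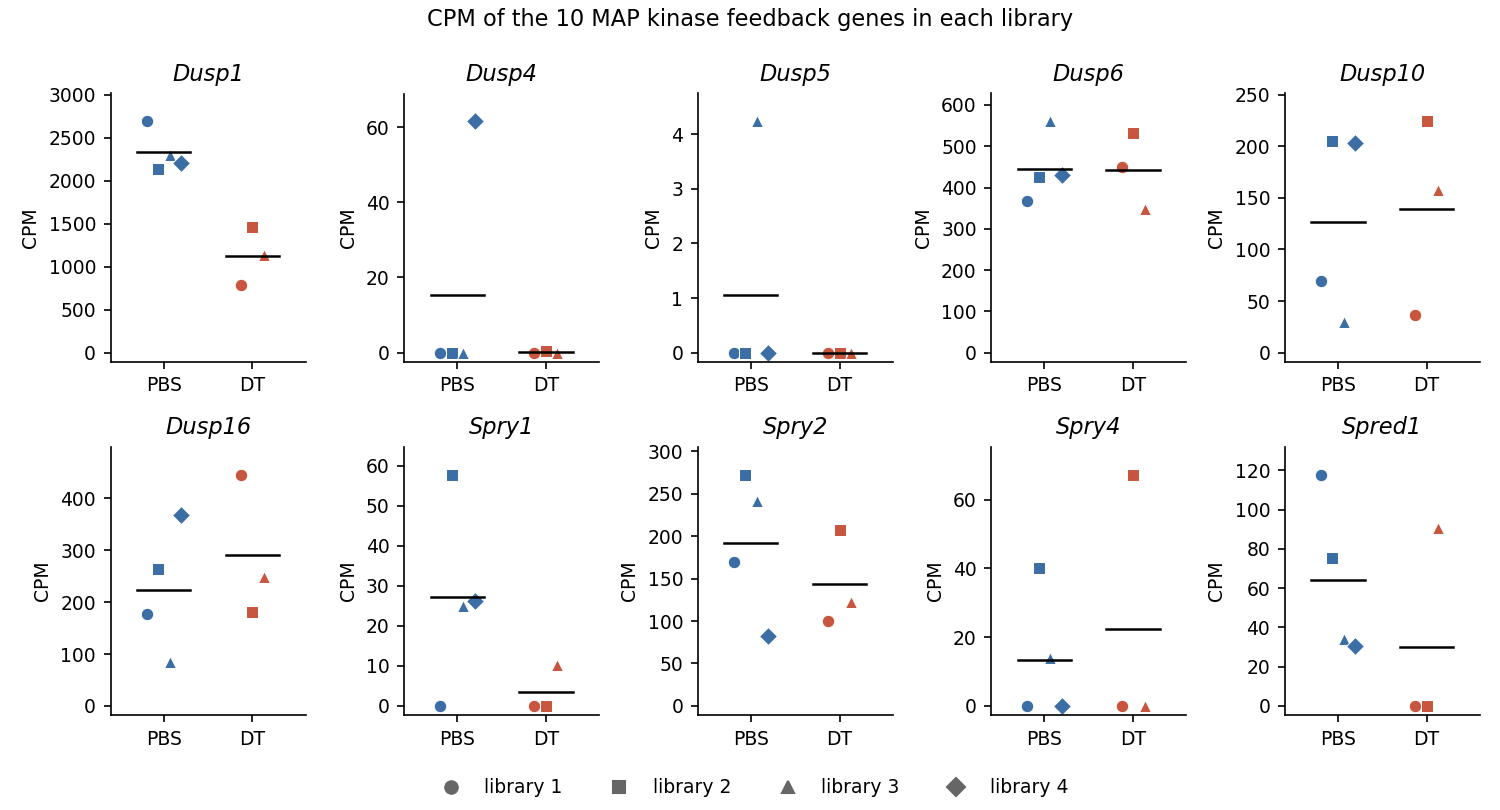
CPM of each of the 10 genes (vertical axis of each panel, its own scale from 0) in the PBS libraries (blue) and DT libraries (red), with the marker shape giving the library number and the black line the group mean. Dusp1 is the panel in which no DT library reaches the lowest PBS library, while the points of Dusp6, Dusp10, Dusp16 and Spry2 intermingle.

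Of the 10 members, 8 had enough counts for the edgeR quasi-likelihood test across 7688 genes (two-sided, Benjamini-Hochberg adjustment, threshold 0.05). None of the 8 was called, where the fit called 3 genes (0.0390%), all lower in DT, among them the nuclear RNA Malat1. At an unadjusted p below 0.05 the count was 1 member (3.50% of all tested genes). DESeq2 called 1 member (1.44% of genes) and limma-voom with sample weights 1 (0.156%), in each case Dusp1, which edgeR also called when DT 2 was left out. Because the members were listed with this contrast known, nothing is read from these counts. Fold changes were positive in 4 and negative in 4 of the 8, with a median log2 fold change of -0.20 beside -0.02 over all tested genes, and among the 5 members with counts in every library 3 were positive and 2 negative.

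Dusp1 encodes the founding MAP kinase phosphatase, a nuclear enzyme that acts on p38 and JNK and also on ERK. It stood at 2693, 2138, 2302 and 2207 CPM in the PBS libraries, in order of number, and at 783, 1461 and 1138 CPM in the DT libraries. The groups did not overlap: the highest DT library, DT 2, lay below the lowest PBS library, PBS 2. The DT mean was 0.483 of the PBS mean, and the log2 fold change was -1.03 (SE 0.25). Dusp1 was the only member with no overlap between the groups, a pattern shown as lower in DT by 2.68% of the tested genes, or 5.94% of those whose average log2 CPM was at least 8. The PBS libraries lay close together, with a coefficient of variation of 10.6%, where 40 other genes within 1.5-fold of its PBS level had a median of 20.2%. The DT libraries were more scattered, at 30.1% against a median of 19.6% for 116 genes of like level.

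The fold change of Dusp1 lay between -1.26 without DT 2 and -0.84 without DT 1 over 17 alternatives. Because its groups did not overlap, leaving out a library or changing the scaling could hardly turn its sign, and nothing is read from that sign. With the hepatocyte markers as a covariate, entered as their summed log2 CPM, the fold change was -1.05, and with the presence of Y-linked reads -1.23. Dusp1 was not called by edgeR in either of these fits. The summed CPM of the hepatocyte markers, another measure, was higher in every DT library than in every PBS library. The 2 libraries at the ends of the Dusp1 range, PBS 1 at 2693 CPM and DT 1 at 783 CPM, both held Y-linked reads. Early response genes that rise during cell dissociation, a list of 20 with counts in every library, summed to 17940 to 20510 CPM in PBS and 14690 to 17660 CPM in DT. Such a sum is weighted to the most abundant genes, here Nfkbia and Cyr61. Their means were 3125 and 2872 CPM in PBS and 1993 and 1921 CPM in DT. The list as a whole had a median log2 fold change of -0.06 beside -0.02 over all tested genes, with 6 positive and 14 negative. The part of these genes in the result for Dusp1 was not tested.

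The other nuclear phosphatase genes of the set, Dusp4 and Dusp5, which are induced by ERK signalling, were close to absent and were not tested. Dusp4 counts were 0, 0, 0 and 319 in the PBS libraries, in order of their number, and 0, 2 and 0 in the DT libraries. All but 2 of its reads were thus in PBS 4, the library with the most Lyz2. PBS 4 held 110 genes with 319 or more counts that had 0 counts in the other 3 PBS libraries, and PBS 1 to 3 held 107, 83 and 70 such genes of their own. Those that also had 2 or fewer counts in each DT library, as Dusp4 did, numbered 17 in PBS 4 and 43, 35 and 32 in PBS 1 to 3. Dusp5 had 21 counts in PBS 3 and 0 counts in the other 6 libraries. A count of 0 allows up to 3 counts per library by counting error alone. The paired CArG boxes in the printed sequences thus stand before the member with the fewest reads.

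Dusp6 encodes the cytoplasmic phosphatase that prefers ERK over JNK and p38, and its transcript is widely used as a readout of ERK activity. It stood at 367, 426, 560.5 and 430.2 CPM in the PBS libraries, in order of number, and at 449, 531 and 347 CPM in the DT libraries. The groups overlapped across their whole range, with the lowest library of all in DT and the highest in PBS. The log2 fold change was 0.005 (SE 0.38), and leaving out 1 library at a time moved it between -0.15 and 0.14. Its coefficient of variation, 18.3% in PBS and 20.9% in DT, was below the median of genes at its level (33.5% and 31.5%).

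Within a library, the ratio of Dusp1 to Dusp6 does not depend on library size or scaling. There were 7.34, 5.02, 4.11 and 5.13 Dusp1 counts per Dusp6 count in the PBS libraries and 1.75, 2.75 and 3.28 in the DT libraries. The groups did not overlap in this ratio, which reuses the Dusp1 counts and is no separate result. Dusp1 made up 61.5% to 74.9% of the counts of all 10 members in PBS and 43.2% to 54.7% in DT. The other 9 members together were at 902 to 1340 CPM in PBS and 975 to 1210 CPM in DT, and each DT library lay inside the PBS range. The whole set summed to 3444 ± 126 CPM in PBS (SD, n = 4) and 2200 ± 435 CPM in DT (SD, n = 3), and nearly all of that difference was in Dusp1 reads (means of 2335 and 1127 CPM).

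**Figure D2:**
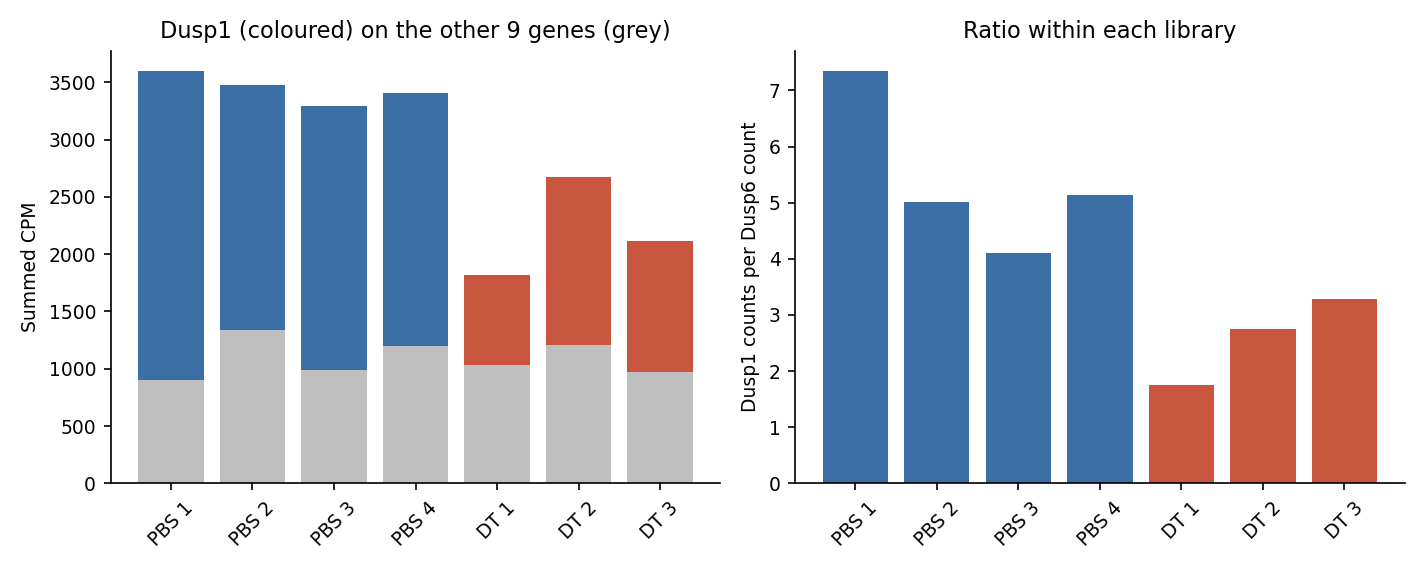
Left, summed CPM of the 10 genes in each library, with Dusp1 in colour (blue PBS, red DT) stacked on the other 9 genes in grey. Right, Dusp1 counts divided by Dusp6 counts in the same libraries. The grey part stays between 902 and 1340 CPM, while the ratio is 4.11 or more in each PBS library and 3.28 or less in each DT library.

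Dusp10 and Dusp16 encode phosphatases that prefer JNK and p38 over ERK. Dusp10 stood at 69.5, 205, 29.3 and 203 CPM in the PBS libraries, in order of number, and at 36.9, 224 and 157 CPM in the DT libraries. Low and high libraries occurred in both groups, and the log2 fold change of 0.16 (SE 0.91) ran from -0.36 without DT 2 to 0.59 without DT 1. Dusp16 stood at 178, 263, 85.2 and 367.5 CPM in the PBS libraries, in order of number, and at 446, 180 and 248 CPM in the DT libraries. DT 1 was its highest library but the other DT libraries lay within the PBS range, and the log2 fold change of 0.40 (SE 0.53) was -0.06 without DT 1. DT 1 was at once the highest library for Dusp16 and the lowest of its group for Dusp10, with 12.1 Dusp16 counts per Dusp10 count, against 0.804 and 1.58 in DT 2 and DT 3 and 1.28 to 2.91 in PBS. The wide spread of both genes was common at their level: the coefficient of variation of Dusp10 was 71.7% in PBS, with a median of 60.7% for 1470 genes within 1.5-fold of its level.

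Among the Sprouty genes, whose products damp receptor tyrosine kinase signalling above ERK, only Spry2 had counts in every library. Spry2 stood at 170.0, 273, 241 and 82.4 CPM in the PBS libraries, in order of number, and at 99.9, 207 and 122 CPM in the DT libraries. The lowest library was PBS 4, so the groups overlapped, and the log2 fold change of -0.40 (SE 0.70) ran from -0.77 without DT 2 to -0.18 without PBS 2. Spry1 counts were 0, 299, 123 and 136 in the PBS libraries, in order of their number, and 0, 0 and 60 in the DT libraries. Reads of Spry1 were thus found in 3 of 4 PBS and 1 of 3 DT libraries, with a log2 fold change of -2.97 and a larger SE of 3.61. Without DT 3 no DT library held Spry1 reads. Spry4 counts were 0, 207, 69 and 0 in the PBS libraries, in order of their number, and 0, 371 and 0 in the DT libraries, giving a log2 fold change of 0.75 (SE 3.28). All DT reads of Spry4 were in DT 2, and without it the fitted value was -9.19, which is no bound. The 3 Sprouty genes summed to 109 to 370.5 CPM in PBS and 99.9 to 275 CPM in DT.

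Spred1 encodes a membrane-associated inhibitor of Ras and Raf activation that works together with neurofibromin. Its counts were 617, 389, 168 and 158 in the PBS libraries and 0, 0 and 534 in the DT libraries. DT 3, at 90.5 CPM, lay inside the PBS range of 30.5 to 118 CPM, while DT 1 and DT 2 had no reads. The log2 fold change was -1.06 (SE 2.51) and rested in DT on that library alone. Of genes that averaged 200 to 500 counts in the rest of a library's group, 25.6% had no reads in that library. Spred1 had counts in every PBS library, as did Dusp1, Dusp6, Dusp10, Dusp16 and Spry2.

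**Figure D3:**
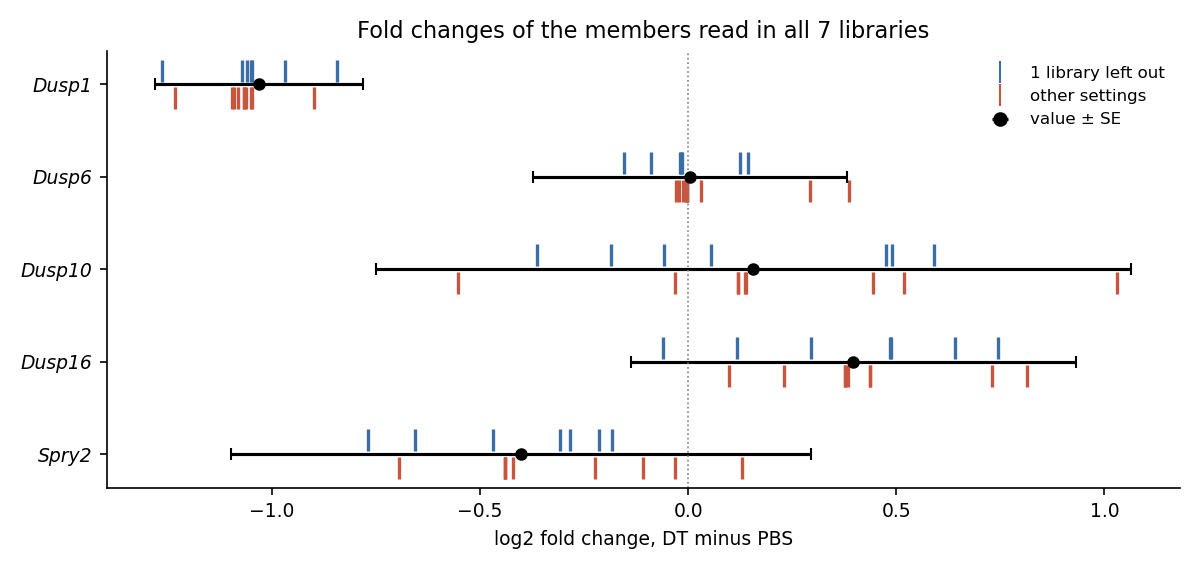
Log2 fold change (DT minus PBS, horizontal axis) of the 5 members with counts in all 7 libraries: black points with bars show the value ± SE with all libraries, blue ticks the values with 1 library left out and red ticks those with other scaling, filters, tools or covariates. The ticks of Dusp1 lie at -0.84 or lower, while the ticks of Dusp6, Dusp10, Dusp16 and Spry2 fall on both sides of 0.

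The rest of the pathway was described with 8 lists holding 154 distinct genes besides the members, of which 120 were tested. None passed the edgeR test in either direction (background 0.0390%). At an unadjusted p below 0.05 there were 1 higher and 5 lower (3.50% of all tested genes in either direction). DESeq2 (1.44% of genes) and limma-voom (0.156%) each called 1, Junb, as lower. Summed over the lists, genes with no overlap between the groups numbered 2 lower (2.68% of all tested genes) and 2 higher (3.71%).

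No tested receptor or ligand gene passed. Of 10 tested receptor genes 5 had positive and 5 negative fold changes, with a median of -0.06 beside -0.02 over all genes. The most abundant were Fgfr1, Met and Fgfr3, receptors for fibroblast and hepatocyte growth factors, whose log2 folds were -0.36, 0.24 and 0.54 (SE 0.75, 0.91 and 0.73). Of 7 tested ligand genes 3 were positive and 4 negative (median -0.07). Hbegf, which encodes a ligand of the EGF receptor, was read at a level near that of Dusp1, with 1217 to 2018 CPM in PBS and 1412 to 1871 CPM in DT, a log2 fold of -0.07 (SE 0.25). Each DT library of Hbegf lay within the PBS range. The platelet-derived growth factor genes Pdgfb and Pdgfa differed by log2 folds of -0.69 and -0.39 (SE 0.44 and 0.74).

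The core ERK cascade list had 12 positive and 12 negative fold changes among 24 tested genes (median -0.06), and the JNK and p38 list 11 and 11 among 22 (median -0.02). Of the most abundant core genes, Nras and Mknk2, a Ras gene and a kinase gene downstream of ERK, differed by log2 folds of 0.51 and 0.55 (SE 0.50 and 0.74). Grb2, the adaptor that links receptors to Ras, was the tested core gene without overlap, at 191 to 275.5 CPM in PBS and 35.6, 189 and 168 CPM in DT, a log2 fold of -0.78 (SE 0.66). The highest Grb2 value in DT lay just under the lowest in PBS. Map2k3, the kinase gene that activates p38, was at 0.02, and Taok1 and Mapkapk2, which encode kinases above and below p38, were at 0.54 and 0.16 (SE 0.41, 0.46 and 0.59).

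Other brakes on the pathway did not pass the test either. Of 14 tested negative regulators 5 were positive and 9 negative, with a median of -0.27. Cblb, named for its 0 counts in each DT library, had the lowest fold change of them. Setting it at a floor of 3 counts per library left the median the same, as any value still below the median must. Errfi1, an inhibitor of the EGF receptor that is itself induced by ERK signalling, was at 488 to 1048 CPM in PBS and 546 to 678 CPM in DT, a log2 fold of -0.41 (SE 0.33). The phosphatase 2A genes Ppp2ca and Ppp2r1a were at 0.48 and -0.33 (SE 0.50 and 0.63). Of 7 other dual-specificity phosphatase genes tested, 3 were positive and 4 negative (median -0.05). Dusp11 and Dusp3 differed by log2 folds of -0.05 and -0.48 (SE 0.79 and 0.98). Dusp8, which encodes a phosphatase for JNK and p38, had no overlap, with 31.1, 27.1, 45.4 and 4.82 CPM in PBS and 114, 127 and 62.4 CPM in DT, in order of library number (log2 fold change 1.92, SE 2.07).

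Transcripts that respond to ERK are the usual companions of feedback genes. Of 20 tested ERK-responsive and ETS genes 12 were positive and 8 negative, with a median of 0.08, and 0 passed by edgeR. Egr1, an immediate early transcription factor gene, was at 1238 to 1693 CPM in PBS and 1375 to 1701 CPM in DT, a log2 fold of 0.10 (SE 0.25). Ier3, an early response gene that limits cell death, was at -0.03 (SE 0.25), and Plaur, the urokinase receptor gene, at 0.16 (SE 0.28). Ets2, named after its values were seen, was higher in each DT library (701 to 846 CPM) than in each PBS library (282 to 618 CPM), with a log2 fold change of 0.66 (SE 0.34).

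The list of dissociation early response genes, which shares Fos, Egr1, Ier2 and Ier3 with the ERK-responsive list, had 6 positive and 14 negative fold changes among 20, with a median of -0.06 and 0 past the edgeR threshold. At an unadjusted p below 0.05 there were 5 (3.50% of all tested genes were), named here after their values were seen: Junb, Hspa1a, Nfkbia and Cyr61 with log2 fold changes of -1.11, -1.02, -0.63 and -0.56, and Atf3 with 0.87. Junb, an AP-1 subunit gene, was the one without overlap, at 1648, 1599, 2312 and 1423 CPM in PBS and 646, 804 and 950 CPM in DT, in order of library number. The SE of its log2 fold change was 0.27. Klf6, the third most abundant gene of the list after Nfkbia and Cyr61, was at 0.22 (SE 0.22).

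**Figure D4:**
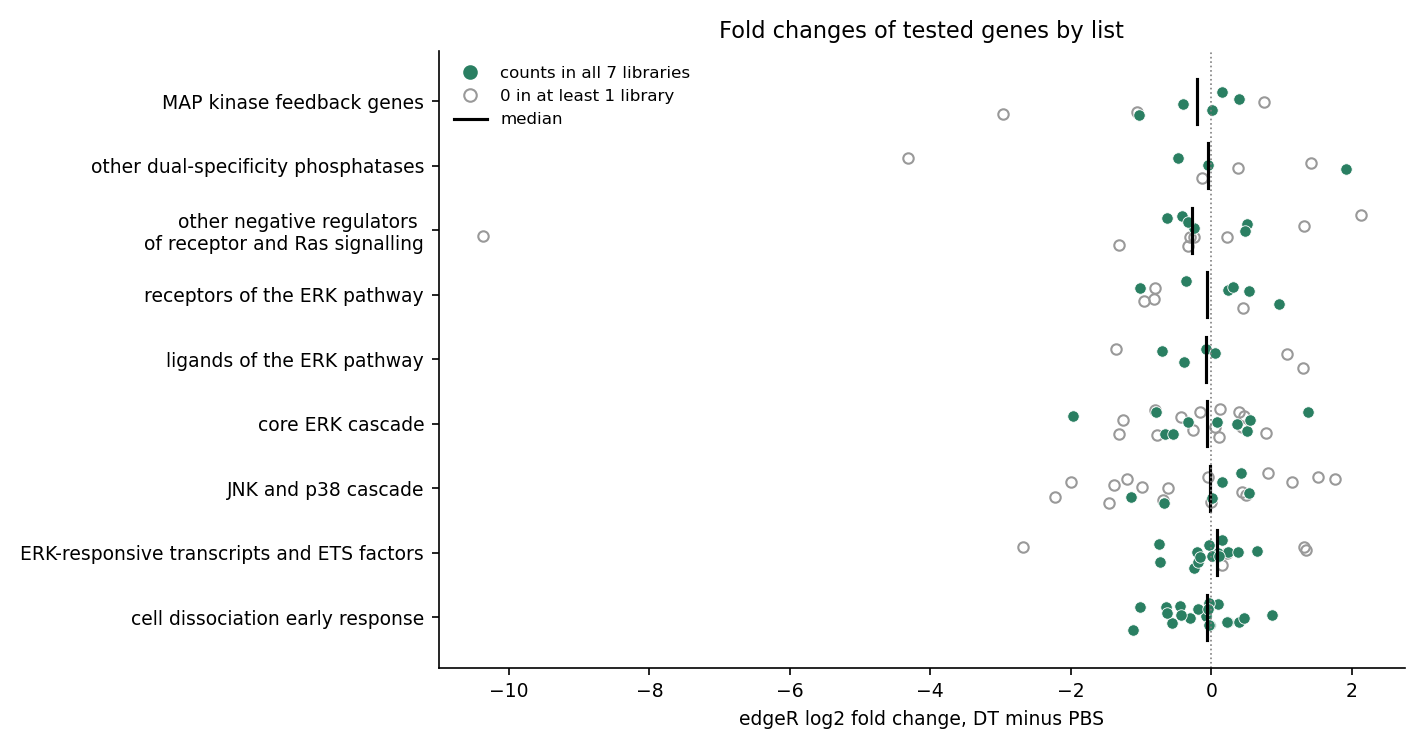
Log2 fold change (DT minus PBS, horizontal axis) of each tested gene in the 10 MAP kinase feedback genes and the 8 other lists, with green points for genes with counts in all 7 libraries, open points for genes at 0 in at least 1 library and black bars for the list medians. Medians lie between -0.27 and 0.08, and the open point farthest to the left is Cblb, a fitted value for a gene with 0 counts in every DT library.

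Likeness was measured as the root mean square distance, over the 7 libraries, between log2 CPM values centred on each gene's mean, among 707 tested genes whose average log2 CPM was at least 8. Dusp1 and Dusp6 met that level with counts in every library. The genes nearest to Dusp1 were 1190002N15Rik, Jup, which encodes the junction protein plakoglobin, and Iqgap1, which encodes a scaffold protein that binds actin and MAP kinases, at distances of 0.181, 0.219 and 0.223 (median over all genes 0.767). All 3 were lower in each DT library than in each PBS library, as were 5.94% of the 707 genes, and, like Dusp1, lowest in DT 1. They were picked for likeness to Dusp1 over these same libraries, so the shared pattern follows from the choice and is no separate result. Iqgap1, for example, was at 663 to 880 CPM in PBS and 316, 437 and 474 CPM in DT. The genes nearest to Dusp6 were Anxa2, an annexin gene, Son, a splicing factor gene, and Pnrc1, a nuclear receptor coactivator gene, at 0.0972, 0.129 and 0.145 (median 0.552). These had their highest level in PBS 3 or DT 2, as Dusp6 did, and log2 fold changes of 0.09, -0.05 and -0.17. Distances over 7 libraries describe these libraries alone and carry no test.

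**Figure D5:**
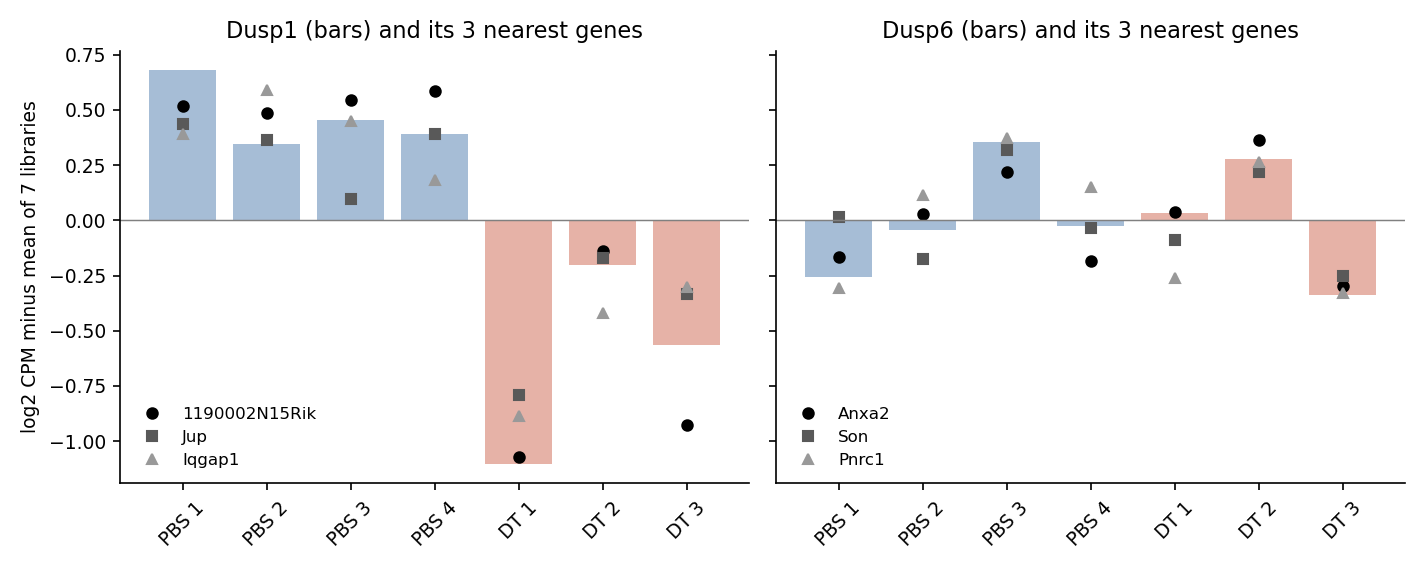
Log2 CPM minus the mean of the 7 libraries (vertical axis) for Dusp1 (left bars) and Dusp6 (right bars) in PBS (blue) and DT (red) libraries, with points for the 3 nearest genes of each. Dusp1 and its neighbours are above 0 in all 4 PBS libraries and below 0 in all 3 DT libraries, while Dusp6 and its neighbours are above 0 in PBS 3 and DT 2 and below 0 in DT 3. The neighbours were picked for this likeness.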

How the data were processed

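Sorted EpCAM+ cholangiocytes gave RNA for QuantSeq FWD 3′-end libraries, per the labels' protocols. The deposited table holds raw read counts per gene symbol. The build is mm9, according to the submitters' processing notes. The aligner, counter and annotation are not given in the sources. Groups came from the treatment label and replicate numbers from the titles.

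Using edgeR 4.0.16 (R 4.3.3), library sizes were scaled by TMM and filterByExpr retained 7688 of 24552 genes, holding 97.5% of the reads. The groups were tested with glmQLFTest and robust dispersion. Each SE was the log2 fold change divided by the root of its F value. CPM used TMM factors over all genes, and log2 CPM a prior count of 2. Other settings tried were upper quartile and RLE factors, no filter, a minimum average log2 CPM of 8, DESeq2 1.42.0, limma-voom with sample weights (limma 3.58.1), the replicate block, hepatocyte, macrophage and Y-linked covariates, and leaving out each library. The script was tested on simulated counts, with large changes placed only in genes of average log2 CPM of at least 8. Dispersion was the same for all genes, so the simulation does not cover genes with fewer reads or smaller changes.

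The members and lists were chosen with earlier results of these data known. Named were all members, the 3 most abundant tested genes of each list in which none passed, the 3 nearest genes of Dusp1 and Dusp6, and Epcam, Foxp3, Alb, Lyz2 and Malat1. Ets2, Junb, Hspa1a, Atf3 and Cblb fall outside this rule and were named after their values were seen. Intervals and floors cover counting error only. Promoters are from GRCm38.p6, another build than that of the counts.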

Additional observations from a re-analysis of the deposited data

Results flagged for a closer look

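Among 44 genes examined for a PBS library far from the other 3, 3 stood apart. The usual rate of chance flags, about 1 in 20 or 2.2 here, holds for continuous values and not for genes mostly at 0. For Dusp4 the gap between PBS 4 (319 counts) and the nearest other PBS library was the whole range of the group (share 1). This is so for any gene at 0 in the other 3, as 110 genes with 319 or more counts in PBS 4 were. Of these, 17 also had 2 or fewer counts in each DT library, as Dusp4 did. For Dusp5 the share was also 1, with 21 counts in PBS 3 and 0 in PBS 1, 2 and 4. For the macrophage gene Lyz2 it was 0.995, with 294 CPM in PBS 4. Dusp4 and Lyz2 thus both stood apart in PBS 4, and whether the Dusp4 reads came with macrophage RNA was not tested.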

How the results depend on the processing

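With all libraries and edgeR, 0 genes were higher and 3 lower in DT, 0 members were called, and 0 of the other pathway genes. RLE and upper quartile factors gave the same counts. The fit gave 1 higher and 7 lower genes without the filter, then 0 and 5 at a minimum average log2 CPM of 8, 29 and 82 by DESeq2, 6 and 6 by limma-voom, 0 and 1 with the hepatocyte covariate, 0 and 4 with the macrophage covariate and 23 and 3 with the Y-linked covariate. Across the fits that each lacked 1 library, 0 to 1 genes were higher and 1 to 4 lower. Lower members numbered 1, Dusp1, with no filter, at that minimum level, by DESeq2 and by limma-voom. No member was called with the hepatocyte, macrophage or Y-linked covariate. Lower members numbered 0 to 1 when 1 library was left out, and the 1 was Dusp1 without DT 2. Of the other pathway genes 1, Junb, was lower with no filter, at that level, by DESeq2 and by limma-voom. With those covariates no other pathway gene was called. With the replicate number as a block, 6 genes were higher and 6 lower, with 1 lower member (Dusp1) and 1 lower pathway gene (Junb). Same-numbered libraries did not deviate together: over 707 genes the correlations of deviations from the group means were -0.0688 to 0.0048, with 0 of 3 over 0.1, and 0 DT libraries correlated best with their own number.

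The fold change of Dusp1 kept its sign in 17 of 17 alternatives, which could hardly be otherwise for a gene whose groups did not overlap. Spred1 was negative in 16 of 16, but its value ran from -0.47 without DT 2 to -4.90 by limma-voom, -9.33 with the block, -11.43 without DT 3 and -13.99 with the hepatocyte covariate. Dusp6, at 0.005, is too near 0 for its sign to be read, and its values with the hepatocyte and Y-linked covariates were 0.39 and 0.29. Dusp10 turned in 5 of 16, and Dusp16, Spry1 and Spry2 in 1 of 16 each. Spry4 turned in 2 of 14. The Y-linked covariate sets the DT libraries against PBS 1 alone, the highest library for Dusp1. It moved the median of genes with an average log2 CPM of at least 8 from 0.03 to 0.14, so that Dusp1 at -1.23 is read against that shift. Except there and where fewer libraries or genes were tested, the cause of such moves was not tested. Below about 1000 counts the frequent values of 0 limit what can be seen.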
